A study of Ovis aries with 2 samples.

Results

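Glycolysis genes were followed cell class by cell class in 2 single-cell libraries from sheep. The 6 genes are ALDOA, GAPDH, PGK1, ENO1, PKM and LDHA, chosen with earlier results of these data known. Their rows were found by gene symbol alone. Each symbol matched 1 row of 21890 genes, and each gene had UMIs (unique molecular identifiers, 1 per captured transcript) in both libraries. One library came from the native carotid artery, although its title calls the vessel an aorta. The other came from a tissue-engineered vascular graft, an ATEV titled H2R5-ATEV, which the series describes as cell-free. Both vessels were explanted after 12 weeks from sheep aged 1 to 2 years, and how many animals gave tissue is not stated. No treatment, strain or genotype is given for either library. Cells were digested off the inside of each clamped vessel for 20 minutes, with a target of about 10000 cells per capture. Each group is 1 library, so no difference below has a replicate check and no test between the groups was made. Intervals are exact, at 95%, and cover counting error only.

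Glycolysis splits glucose into pyruvate in the cytosol and yields ATP without oxygen, and lactate dehydrogenase turns pyruvate into lactate when it is not sent to the mitochondria. Endothelial cells are known to draw much of their ATP from glycolysis, and activated macrophages and proliferating cells are known to raise it. Hypoxia-inducible factor HIF1A is a known activator of many of these genes. ALDOA (ENSOARG00020015962) is aldolase, which splits fructose bisphosphate. GAPDH (ENSOARG00020005655) carries out the oxidation that yields NADH. PGK1 (ENSOARG00020016769) makes the first ATP. ENO1 (ENSOARG00020019151) is the enolase that forms phosphoenolpyruvate, PKM (ENSOARG00020003761) is the pyruvate kinase that makes the last ATP, and LDHA (ENSOARG00020026056) makes lactate. Counts per gene do not separate the PKM isoforms. Reads shared with near-identical copies, which GAPDH and other glycolysis genes have in mammals, could not be examined, so their values are uncertain to that extent.

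The native library held 11371 barcodes with a median of 1366 UMIs, and the graft library 1229 barcodes with a median of 17050 UMIs. After filtering, 10082 native and 1074 graft cells remained, and 7 barcode sequences occurred in both libraries, 4 of them among the kept cells. Because of the depth gap, levels are means per cell after drawing 1000 UMIs from each cell. This left out 3808 native and 162 graft cells with fewer UMIs. CPM, the UMIs of a gene scaled to a fixed total per class and library with all UMIs kept, are given beside these levels. Classes were named from marker lists and are endothelial-like, smooth muscle-like, macrophage-like, T or NK-like and fibroblast-like cells, written below without the ending. After thinning, the native classes held 3598 endothelial, 97 smooth muscle, 760 macrophage, 721 T or NK and 988 fibroblast cells. The graft classes held 201 endothelial, 195 smooth muscle, 318 macrophage and 68 T or NK cells, while 27 graft fibroblasts were too few to compare.

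The clusters that made up a class differed between the libraries. Graft endothelial cells lay mostly in cluster 23 (175 of 208 cells) and native ones in clusters 0, 1, 7, 8 and 14. Graft smooth muscle cells lay in cluster 21 (191 of 195) and native ones in cluster 11 (131 of 132). Graft macrophages lay mostly in cluster 13 (264 of 320) and native ones in clusters 4 and 12. T or NK cells of both libraries shared clusters 10 and 16, and cluster 3 was native only. With 1 library per group, a cluster held by a single library cannot be told apart from that library.

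In the native artery, fibroblasts carried the most transcripts of the 6 genes and smooth muscle cells the fewest. Summed over the 6 genes, fibroblasts had 1.56 UMIs per 1000 (interval 1.49 to 1.64), macrophages 1.30 (1.22 to 1.38) and T or NK cells 1.23 (1.15 to 1.32). Endothelial cells had 0.783 (0.754 to 0.812) and smooth muscle cells 0.515 (0.383 to 0.680). The intervals of macrophages and T or NK cells overlapped, and the other steps in this order did not.

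Single genes broke that order. ALDOA was at 0.514 UMIs per 1000 in native fibroblasts, against 0.221 in T or NK cells, 0.207 in macrophages, 0.182 in endothelial cells and 0.0619 in smooth muscle cells. It supplied 32.9% of the UMIs of the 6 genes in fibroblasts, against 12.0 to 23.2% in the other 4 native classes. GAPDH was highest in macrophages at 0.437 UMIs per 1000 and next in T or NK cells at 0.374, with overlapping intervals. GAPDH supplied 33.7% of the 6-gene UMIs in macrophages and 20.5% in fibroblasts. LDHA was at 0.209 in T or NK cells, 0.201 in macrophages and 0.162 in fibroblasts, with overlapping intervals. Its 0.0714 in endothelial and 0.0412 in smooth muscle cells lay below these, without overlap. ENO1 levels of fibroblasts, macrophages and T or NK cells lay between 0.178 and 0.211 and overlapped. PKM was highest in fibroblasts at 0.273, beyond the intervals of endothelial cells (0.143), macrophages (0.145) and T or NK cells (0.137). PGK1 lay between 0.0611 (endothelial cells) and 0.115 (T or NK cells) over the 5 native classes.

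In the graft the order differed. Macrophages led with 2.07 UMIs per 1000 summed over the 6 genes (1.92 to 2.24). Endothelial cells had 1.60 (1.43 to 1.79) and smooth muscle cells 1.37 (1.21 to 1.55), with overlapping intervals, and T or NK cells had 0.853 (0.648 to 1.10). Smooth muscle cells stood last in the artery and above T or NK cells in the graft.

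**Figure D1:**
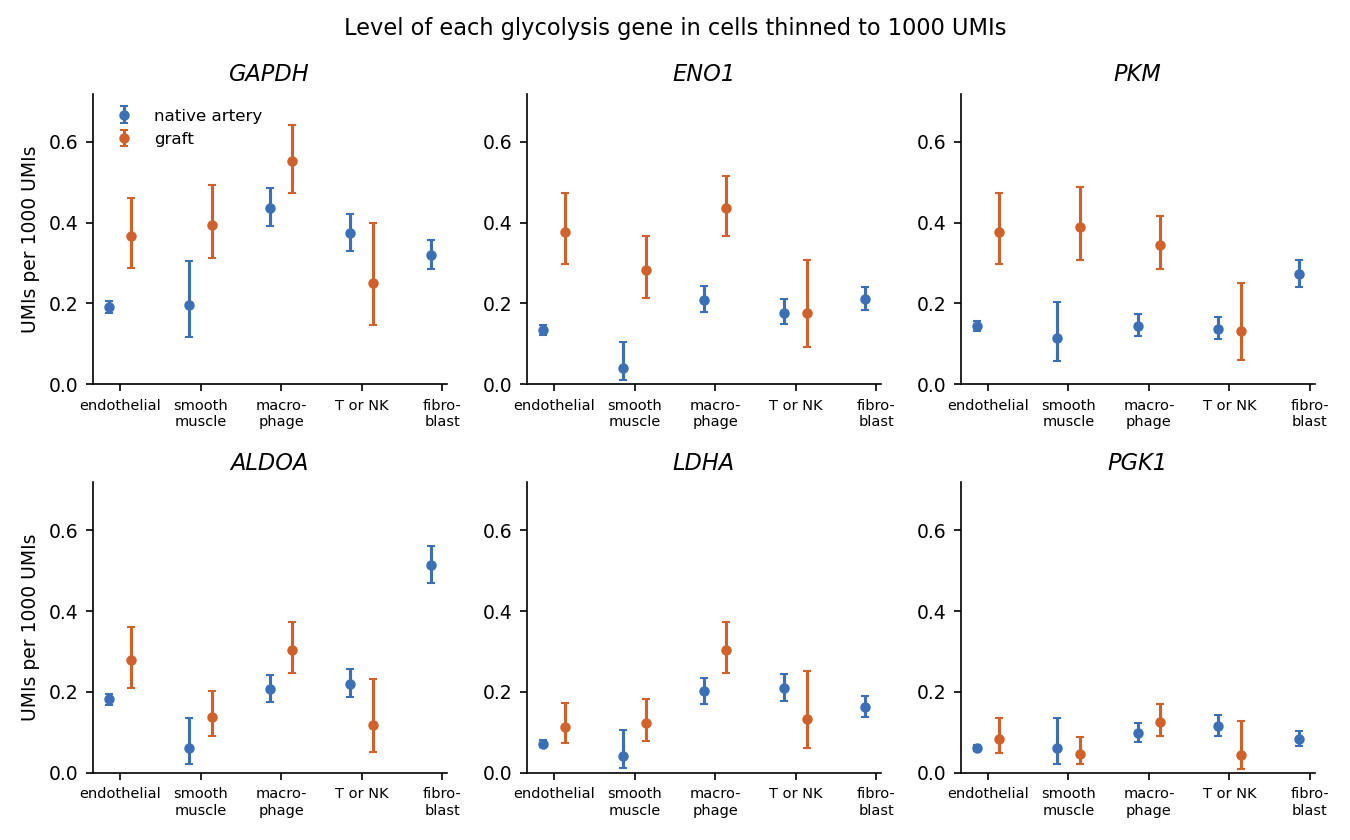
Mean UMIs per 1000 UMIs of each gene (y axis) in each cell class (x axis), blue for the native artery and orange for the graft, with exact 95% Poisson intervals. Orange points of ENO1 and PKM lie above the blue ones without overlap in endothelial, smooth muscle and macrophage cells, and ALDOA is highest in native fibroblasts.

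Endothelial cells of the graft carried 2.05 times the 6-gene level of native endothelial cells (1.82 to 2.30), and the lower enzymes ENO1 and PKM differed most. ENO1 was at 0.135 UMIs per 1000 in native and 0.378 in graft endothelial cells, a ratio of 2.81 (2.18 to 3.59). PKM was at 0.143 and 0.378, a ratio of 2.64 (2.05 to 3.37). For both genes, and also for GAPDH and ALDOA, the intervals of the 2 libraries lay apart. GAPDH, further up the pathway, was at 0.191 and 0.368, a ratio of 1.93 (1.5 to 2.45). ALDOA was at 0.182 and 0.279, a ratio of 1.53 (1.15 to 2.02). LDHA was at 0.0714 and 0.114 (ratio 1.60, 0.997 to 2.46) and PGK1 at 0.0611 and 0.0846 (ratio 1.38, 0.791 to 2.27). The intervals of LDHA and PGK1 included 1. At least 2-fold higher were 2 of the 6 genes, beside 11.9% of 11724 genes tested in this class, and none was 2-fold lower. The median log2 ratio of the 6 was 0.81, beside 0 over all genes tested.

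Over all UMIs, every one of the 6 genes was at least 2-fold higher in graft endothelial cells, with ratios from 2.07 (ALDOA) to 3.37 (ENO1). The matching share over all genes was 14.8%, and 18.1% of genes were 2-fold lower, none of the 6 among them. Another random draw of UMIs gave 4 of 6 at 2-fold. Averaged over all draws, 4 of 6 also passed, and LDHA, with 23 drawn graft UMIs, was then at 2.25. Other values moved with this result and their part in it was not tested. The immediate-early genes FOS and JUN, which tissue dissociation is known to induce, were lower in the graft, at 1165 against 4708 CPM and 959 against 2718 CPM. Of the dissociation list, 0 of 11 genes were 2-fold higher and 6 lower after thinning, beside 11.9% of all genes in each direction. Its member FOSB had a thinned ratio of 1.12 (0.783 to 1.57). The cell cycle gene TOP2A was at 165 against 7.29 CPM. The 11 macrophage markers with a row were lower in graft endothelial cells, at 0.149 UMIs per 1000 summed against 0.299, with 9 and 11 of them detected. Without endothelial cells holding 2 or more UMIs of these markers the ratio was 2.12.

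Smooth muscle cells of the graft also carried more of the 6 genes, beside few native cells. At 1000 UMIs their ratio was above that of endothelial cells, with overlapping intervals, but it was the lower one over all UMIs (2.66 against 2.81) and in cells of 5000 to 20000 UMIs (1.55 against 1.8). The 6 genes together were at 0.515 UMIs per 1000 in native and 1.37 in graft cells, a ratio of 2.67 (1.97 to 3.68). PKM was at 0.113 and 0.390, a ratio of 3.44 (1.82 to 7.17), and GAPDH at 0.196 and 0.395, a ratio of 2.02 (1.21 to 3.53). ENO1 was at 0.0412 and 0.282, a ratio of 6.84 (2.52 to 26.0), resting on 4 native UMIs. Over all UMIs ENO1 was 3.54-fold higher (2.76 to 4.62), at 83.5 and 296 CPM. LDHA had a ratio of 2.98 (1.03 to 11.8) and ALDOA 2.24 (0.905 to 6.63). PGK1, from 6 native and 9 graft UMIs, had a ratio of 0.746 (0.237 to 2.55), and 1.51 over all UMIs. At least 2-fold higher were 5 of 6 genes, beside 18.4% of 5058 genes tested, and 4 of 6 over all UMIs, beside 13.5%. In cells of 5000 to 20000 UMIs 1 of 6 was at 2-fold, and 2 of 6 when each cell was classed by its own markers. The 12 fibroblast markers were all detected in both libraries and summed to 22.6 UMIs per 1000 in graft and 6.89 in native smooth muscle cells. The 11 macrophage markers with a row summed to 0.826 UMIs per 1000 in graft smooth muscle cells (11 detected) and 0.155 in native ones (5 detected). Without smooth muscle cells holding 2 or more UMIs of these macrophage markers the 6-gene ratio was 2.6, with 171 graft and 97 native cells left. Cells with markers of other classes were kept. The part of the fibroblast markers in the result was not tested.

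Macrophages of the graft had a higher 6-gene level than native macrophages at equal UMIs drawn and among cells above 20000 UMIs, but not among cells of 5000 to 20000 UMIs. The 6 genes were at 1.30 UMIs per 1000 in native and 2.07 in graft cells, a ratio of 1.60 (1.45 to 1.77). PKM was at 0.145 and 0.346, a ratio of 2.39 (1.82 to 3.14), and ENO1 at 0.209 and 0.437, a ratio of 2.09 (1.65 to 2.64). GAPDH, already the most counted of the 6 in native macrophages, was at 0.437 and 0.553, a ratio of 1.27 (1.05 to 1.53). ALDOA had a ratio of 1.48 (1.13 to 1.91), LDHA 1.52 (1.16 to 1.97) and PGK1 1.29 (0.857 to 1.92). At least 2-fold higher were 2 of 6 genes, beside 11.7% of 9243 genes tested, and another draw of UMIs gave 0 of 6. Over all UMIs the count was also 2 of 6, beside 9.74%. Among macrophages of 5000 to 20000 UMIs, the ratio of the 6-gene sum was 0.954 (0.893 to 1.02; 63 graft and 341 native cells). Above 20000 UMIs it was 1.88 (1.81 to 1.94; 247 and 93 cells). The 5 neutrophil markers with a row summed to 0.575 UMIs per 1000 in graft and 0.0329 in native macrophages, 4 of 5 detected in each. Their part was not tested.

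T or NK cells did not share the higher graft level. The 6 genes were at 1.23 UMIs per 1000 in native and 0.853 in graft cells, a ratio of 0.691 (0.520 to 0.902). GAPDH was at 0.374 and 0.25, a ratio of 0.668 (0.383 to 1.09), and ALDOA at 0.221 and 0.118, a ratio of 0.533 (0.226 to 1.08). ENO1 had a ratio of 0.994 and LDHA 0.632. PKM had a ratio of 0.964, and 1.40 (1.11 to 1.75) over all UMIs. PGK1, from 3 graft UMIs, had a ratio of 0.383 (0.0775 to 1.16). At 1000 UMIs per cell the intervals of all 6 single genes included 1. Over all UMIs the intervals of the genes other than PKM lay below 1. The ratios there were 0.744 for GAPDH (0.614 to 0.894), 0.737 for ENO1 (0.562 to 0.952) and 0.670 for ALDOA (0.508 to 0.869). LDHA was at 0.766 (0.602 to 0.962) and PGK1 at 0.524 (0.350 to 0.757). None was 2-fold higher, beside 11.1% of 8161 genes, and 1 (PGK1) was 2-fold lower, beside 9.56%. Over all UMIs none of the 6 was 2-fold higher or lower, beside 6.45% and 10.5% of all genes. With 2000 UMIs drawn per cell the sum had a ratio of 0.877 and an interval to 1.05. Graft T or NK cells were also shallower than the other graft classes compared, with a median of 6352 UMIs.

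**Figure D2:**
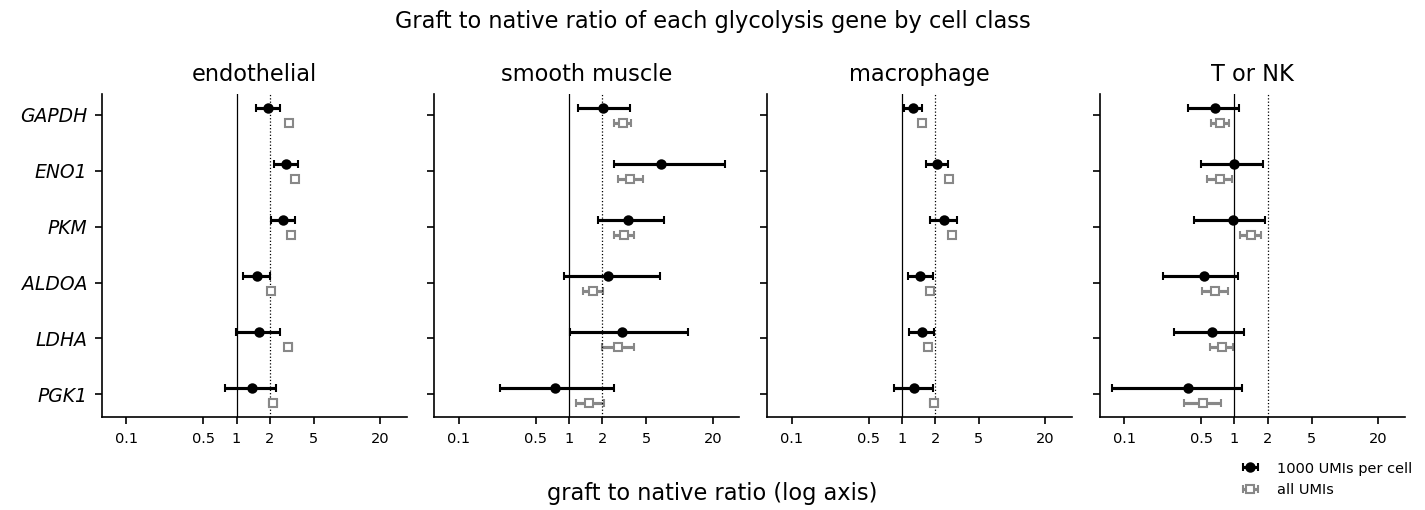
Graft to native ratio of each gene (x axis, log scale) in 4 cell classes, filled circles for 1000 UMIs per cell and open squares for all UMIs, with exact 95% intervals. Solid and dotted lines mark ratios of 1 and 2. ENO1 and PKM lie right of the dotted line in endothelial, smooth muscle and macrophage cells by both measures, and T or NK cells spread around or left of 1.

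Within the graft, the 6-gene level differed with the total depth of the cell, which thinning does not remove. Graft endothelial cells above 20000 UMIs had 2150 CPM summed over the 6 genes, against 1202 CPM at 5000 to 20000 UMIs. Graft smooth muscle cells had 1721 against 935 CPM, and graft macrophages 2641 against 1122 CPM. In native macrophages the same bands held 1408 and 1175 CPM, a smaller step. Native levels differed with depth too. Native endothelial cells had 1135 CPM at 500 to 2000 UMIs, 667 CPM at 2000 to 5000 and 668 CPM at 5000 to 20000. Above 20000 UMIs 27 native endothelial cells had 790 CPM. How far cell size, cell state and capture contribute to these steps was not tested.

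Compared in the band of 5000 to 20000 UMIs, the ratio stayed above 1 in endothelial cells, at 1.8 (1.65 to 1.96; 41 graft and 1189 native cells). In smooth muscle cells it was 1.55 (1.35 to 1.8; 44 and 39 cells), and in T or NK cells 0.848 (0.761 to 0.944; 45 and 387 cells). In this band endothelial ENO1 stood at 125 CPM for native and 314 CPM for graft cells, and PKM at 146 and 306 CPM. GAPDH stood at 150.2 and 251 CPM, while ALDOA was nearly equal at 140.5 and 145 CPM. Smooth muscle ALDOA was also close in this band, at 117 and 118 CPM. Macrophage LDHA, higher in the graft when thinned, was lower in this band, at 201 CPM native (188 to 215) and 147 CPM graft (124 to 174). Macrophage ENO1 was at 192 CPM native (179 to 205) and 163 CPM graft (138 to 190), with overlapping intervals. PKM was higher in the graft, at 135 and 184 CPM. Above 20000 UMIs, macrophage ENO1 was at 573 CPM in 247 graft cells and 215 CPM in 93 native cells. In that band the median depths differed, at 36610 and 25002 UMIs. LDHA was at 374 CPM in graft and 228 CPM in native macrophages there.

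**Figure D3:**
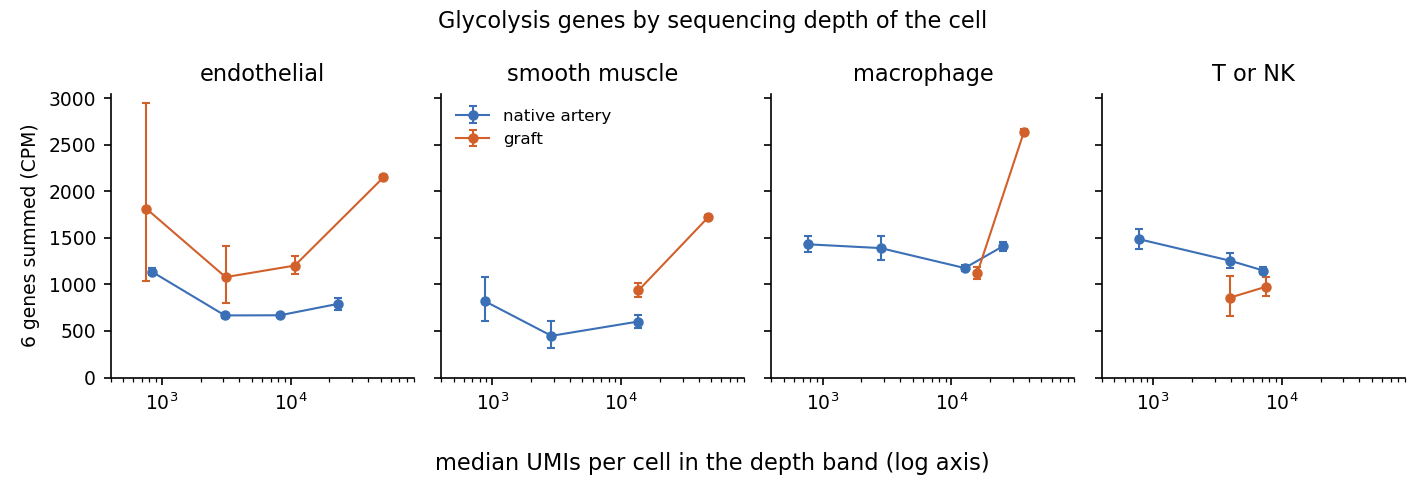
CPM summed over the 6 genes (y axis) against the median UMIs per cell of each depth band (x axis, log scale), for 4 classes in the native artery (blue) and the graft (orange), with exact 95% Poisson intervals. Bands holding too few cells are not drawn. Graft macrophages meet the native level at 5000 to 20000 UMIs (1122 against 1175 CPM) and stand at 2641 CPM above 20000 UMIs.

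Native endothelial clusters differed among themselves by more than the graft differed from the class mean. Cluster 0 had 1.24 UMIs per 1000 summed over the 6 genes and cluster 1 had 1.15. Cluster 14 had 0.758, cluster 7 had 0.539 and cluster 8 had 0.234 (0.203 to 0.269). Clusters 7 and 8 had median mitochondrial shares of 8.05% and 7.69%, against 2.03 to 3.13% in clusters 0, 1 and 14. Graft cluster 23 stood at 1.77 (1.58 to 1.98), above each native endothelial cluster without overlap. With clusters 7 and 8 left out, the endothelial ratio was 1.76 (1.56 to 1.99). ENO1 and PKM stood apart from cluster 0, the highest native one, without overlap. ENO1 was at 0.200 in cluster 0 and 0.430 in cluster 23, and PKM at 0.177 and 0.390. ALDOA was at 0.329 in cluster 0 and 0.320 in cluster 23, so graft endothelial ALDOA lay within the native range. LDHA was at 0.124 and 0.128 in these clusters, PGK1 at 0.0858 and 0.0930, and GAPDH at 0.325 and 0.413, with overlapping intervals.

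Clusters 12 and 16 were held by both libraries with at least 30 thinned cells each. In macrophage cluster 12 the sum had a ratio of 1.37 (1.01 to 1.82) over 32 graft and 399 native cells. There PKM had a ratio of 2.66 (1.34 to 4.89) and PGK1 2.82 (1.05 to 6.52), but GAPDH was at 0.907 (0.459 to 1.63) and ENO1 at 0.866 (0.273 to 2.12). In T or NK cluster 16 the sum had a ratio of 0.697 (0.490 to 0.966). An ENO1 difference was thus not detectable at this depth in the macrophage cluster held by both libraries, while the PKM interval lay above 1.

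**Figure D4:**
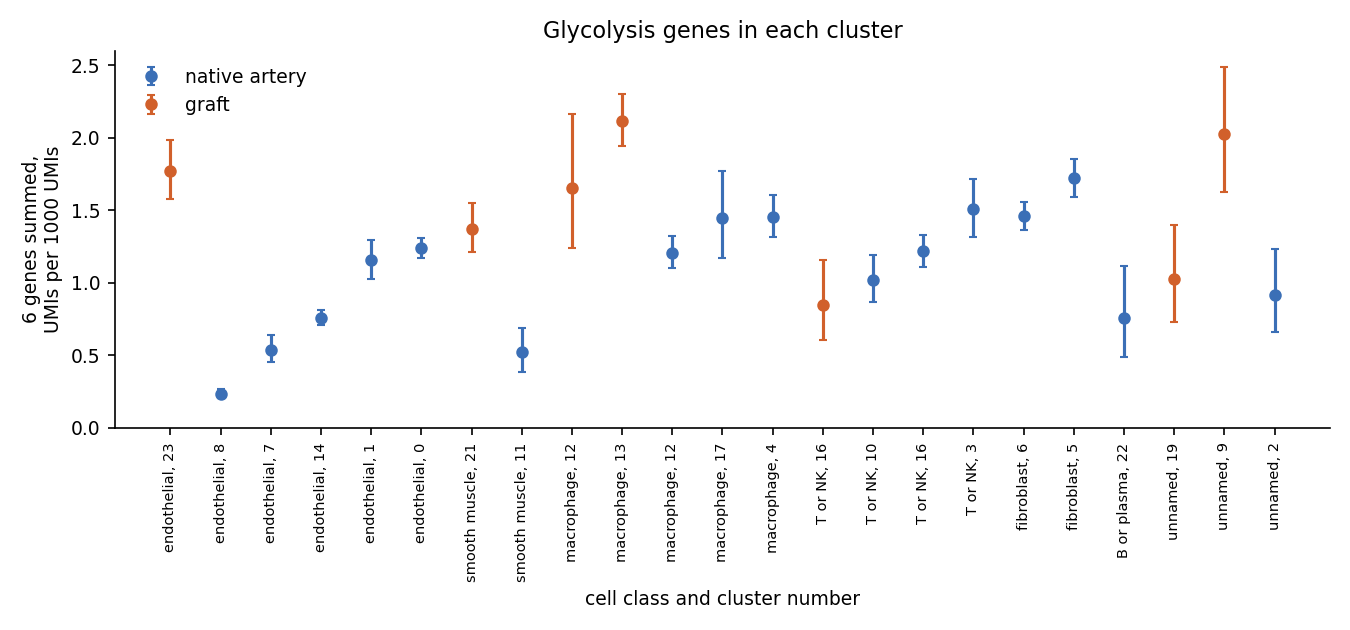
UMIs per 1000 UMIs summed over the 6 genes (y axis) in each cluster with at least 30 thinned cells of a library (x axis, class and cluster number), blue for native and orange for graft, with exact 95% Poisson intervals. Native endothelial clusters run from 0.234 to 1.24, and graft cluster 23 stands at 1.77.

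The mix of the 6 genes shifted towards ENO1 and PKM in the graft. ENO1 supplied 17.2% of the 6-gene UMIs in native and 23.6% in graft endothelial cells, and PKM 18.3% and 23.6%. ALDOA supplied 23.2% and 17.4%. In macrophages the share of GAPDH was 33.7% in the artery and 26.7% in the graft, that of ENO1 16.1% and 21.1%, and that of PKM 11.2% and 16.7%. The macrophage ENO1 share was not higher in the graft at 5000 to 20000 UMIs (841 of 5150 native and 160 of 1103 graft UMIs). Nor was it in cluster 12 (72 of 482 and 5 of 53 UMIs). The PKM share was higher in the graft in both (590 and 181 UMIs, and 61 and 13 UMIs). All these values are shares of the 6-gene UMIs. These are shares of UMIs per gene, not scaled by transcript length.

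LDHA and LDHB encode the subunits of lactate dehydrogenase, and LDHA is the one linked to lactate production. LDHA made up 51.0% of LDHA and LDHB UMIs in native macrophages (45.2 to 56.8%) and 67.8% in graft macrophages (59.5 to 75.4%). LDHB itself had a ratio of 0.748 in macrophages (0.525 to 1.05). In endothelial cells the LDHA share was 30.3% in the artery (27.2 to 33.5%) and 40.4% in the graft (27.6 to 54.2%), with overlapping intervals. In T or NK cells it was 51.5% and 45.0%, also overlapping. Native endothelial cells thus had the lower LDHA share beside native macrophages, T or NK cells and fibroblasts (46.1%).

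Per cell, at 1000 UMIs, the 6 genes were mostly seen as 0 to 2 UMIs. Native endothelial cells without any UMI of the 6 made up 49.7% (48.1 to 51.4%), against 28.4% in the graft (22.2 to 35.1%). In smooth muscle cells these shares were 67.0% and 32.8%, in macrophages 30.9% and 21.1%, and in T or NK cells 32.9% and 45.6%. Cells with 5 or more UMIs made up 2.63% of native and 11.3% of graft macrophages (8.06 to 15.3%), and 0.417% and 5.47% of endothelial cells. ENO1 was seen in 12.4% of native and 30.8% of graft endothelial cells at equal depth. Unthinned, these shares were 27.5% and 90.4%, at median depths of 1639.5 and 33020.5 UMIs. All classes express these genes, so the share that free RNA alone would give could not be measured. Correlations between pairs of the 6 genes over thinned cells of a class were weak, from -0.15 to 0.38, as sparse counts allow.

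Across 23 points, each a cluster in 1 library, the 15 pairs of the 6 genes had Pearson correlations from 0.29 (PKM and PGK1) to 0.77 (GAPDH and ENO1). Over the 16 native points alone they ran from -0.01 (PKM and PGK1) to 0.77 (GAPDH and PGK1). Over the 7 graft points they ran from -0.20 (ENO1 and LDHA) to 0.87 (GAPDH and ENO1). These points share 2 libraries and their depth, so the values are descriptions. By the profile over 10 class-by-library sums, ENO1 was most like the mean of the 6 genes (r 0.97) and LDHA least (r 0.74). Outside the 6 genes, the nearest profiles among 1726 candidates were ATP6V1F (r 0.86), ATP5F1B, VMP1, TXN and TPI1 (each 0.85), TSPO (0.84), RAB10 and GPX4 (each 0.83). The median candidate had r 0.04. TPI1 is the triose phosphate isomerase that stands between aldolase and GAPDH.

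Among the other glycolysis enzymes, 13 of the 23 with a row were counted often enough in endothelial cells, and 3 were at least 2-fold higher and 0 lower in the graft, beside 11.9% of all genes in each direction. Over all UMIs 7 of 19 were higher and 3 lower, beside 14.8% and 18.1%. The 3 lower ones had low levels, ENO3 at 15.3 and 6.06 CPM, PGAM2 at 1.19 and 0.505 CPM and PFKFB1 at 0.972 and 0.101 CPM, and PGAM2 and PFKFB1 were named after their values were seen. HK2, an inducible hexokinase for the first step, was at 1.51 CPM in native and 25.9 CPM in graft endothelial cells. Its thinned ratio of 23.9 (7.26 to 83.5) rested on 6 native and 8 graft UMIs, and over all UMIs it was 17.1. PFKFB3, which makes the activator of phosphofructokinase, was at 6.80 and 30.3 CPM (thinned ratio 3.25, 0.815 to 9.58). ALDOC, a second aldolase, was at 4.80 and 30.02 CPM (5.45, 1.97 to 13.1). TPI1 was at 92.4 and 186 CPM, with a thinned ratio of 1.65 (1.10 to 2.38). LDHB was close in both, with a ratio of 1.03.

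In macrophages 3 of 11 such enzymes were at least 2-fold higher and 1 lower, beside 11.7% and 12.2% of all genes. PFKFB3 was at 41.3 and 69.9 CPM with a thinned ratio of 2.39 (1.28 to 4.46). HK2 had a thinned ratio of 2.08, but over all UMIs it was at 103 and 105 CPM. The remaining one was PFKFB4, outside the naming rule, with 4 native and 6 graft UMIs. PFKL, the liver-type phosphofructokinase, had a thinned ratio of 0.228 from 4 graft UMIs, and 37.5 and 33.5 CPM over all UMIs. In smooth muscle cells 2 of 5 were 2-fold higher, beside 18.4%. These were TPI1, at 99.4 and 199 CPM, and ENO3, the muscle enolase, at 13.3 and 162 CPM. ENO3 had 0 native and 14 graft UMIs after thinning, at least 2.32-fold higher against a floor of 3 counts in the native class. In T or NK cells 0 of 8 were higher and 1 lower, beside 11.1% and 9.56% of all genes. The lower one was GPI, also outside the rule, with 56 native and 2 graft UMIs. PGAM1, the mutase between PGK1 and ENO1, had no row.

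**Figure D5:**
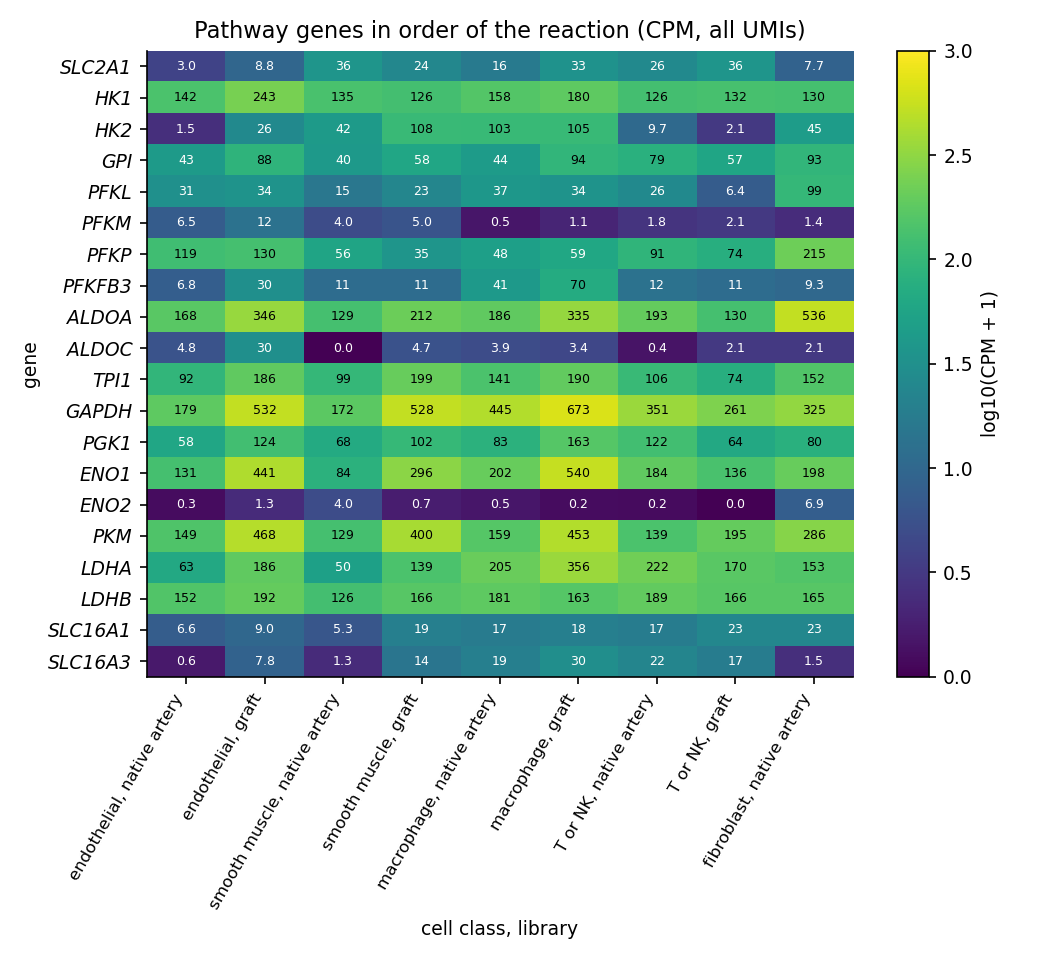
CPM over all UMIs of 20 genes from glucose uptake to lactate export (y axis, in order of the reactions) in each class and library (x axis), coloured by log10(CPM + 1) with the CPM printed in each cell. The brightest rows are ALDOA, GAPDH, ENO1 and PKM, and HK2 is at 1.5 CPM in native and 26 CPM in graft endothelial cells.

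Transport genes left few UMIs after thinning, and several were higher in graft endothelial cells over all UMIs. SLC2A1, the main glucose carrier of many tissues, was at 2.97 CPM in native and 8.79 CPM in graft endothelial cells, with 1 graft UMI after thinning and an all-UMI ratio of 2.96 (2.09 to 4.23). SLC16A3, a lactate exporter, was at 0.594 and 7.78 CPM, and SLC2A6, another hexose carrier, at 2.54 and 12.0 CPM, both named after their values were seen. Averaged over draws, the ratios were 2.40 for SLC2A1, 2.54 for SLC2A6 and 4.22 for SLC16A3. In macrophages SLC2A1 was at 16.4 and 32.7 CPM (thinned ratio 1.52, 0.500 to 4.3, and 2.31 averaged over draws). In smooth muscle cells SLC2A1 was not higher in the graft over all UMIs, at 35.8 and 23.8 CPM (ratio 0.664, 0.446 to 1.03). Its ratio there was 0.597 thinned (0.152 to 2.47) and 1.07 averaged over draws. Of the transport list, 0 of 4 genes were 2-fold higher and 1 lower in thinned endothelial cells, beside 11.9% of all genes in each direction. Over all UMIs 3 of 5 were higher and 1 lower, beside 14.8% and 18.1%, with a median log2 ratio of 1.57 beside -0.06 over all genes. In thinned macrophages 0 of 5 passed in either direction, beside 11.7% of all genes higher and 12.2% lower. The lower gene in endothelial cells was SLC16A7, a monocarboxylate carrier, at 20.2 and 3.23 CPM.

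Of the genes that pass pyruvate to the mitochondria, 4 of 12 were 2-fold higher and 2 lower in graft endothelial cells, beside 11.9% of all genes in each direction. Over all UMIs 3 of 12 were higher and 1 lower, beside 14.8% and 18.1%. The pyruvate dehydrogenase genes PDHA1, PDHB and DLAT had ratios of 3.24 (1.73 to 5.65), 2.51 (1.36 to 4.33) and 4.40 (2.26 to 7.99), and 2.21, 1.95 and 4.09 over all UMIs. The other one at 2-fold was PDHX, from 6 graft UMIs, with a ratio of 2.03 (0.712 to 4.71) and 1.37 over all UMIs. MPC1, a subunit of the mitochondrial pyruvate carrier, had a ratio of 0.448 (0.163 to 0.988), but was at 65.5 and 56.6 CPM over all UMIs. MPC2, another subunit of this carrier, went the other way, at 31.4 and 108 CPM. Its ratio was 1.95 thinned (0.979 to 3.55) and 3.44 over all UMIs (3.11 to 3.81), and it was named after its values were seen. PDK4, a kinase that switches pyruvate dehydrogenase off, was at 22.0 and 0.910 CPM, with 1 graft UMI after thinning. In macrophages 1 of 11, PDHX, was 2-fold higher and 0 lower, a share near the 11.7% of all genes higher, with 12.2% lower. Of the pentose phosphate branch, 1 of 6 genes was 2-fold higher and 0 lower in macrophages, beside 11.7% and 12.2% of all genes. This was PGD, at 115 and 242 CPM (ratio 2.11, 1.49 to 2.97).

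Of the hypoxia list, 2 of 16 genes were 2-fold higher in graft endothelial cells and 0 lower, a share near the 11.9% of all genes. Over all UMIs 3 of 18 were higher and 2 lower, beside 14.8% and 18.1%. One was HIF1A itself, at 41.4 and 303 CPM, a ratio of 7.67 (5.57 to 10.5). The other was P4HA2, a collagen prolyl hydroxylase, at 64.8 and 216 CPM (2.31, 1.53 to 3.39). EPAS1, on the same list, was lower in the graft, at 243 and 111 CPM. Its ratio was 0.750 thinned (0.512 to 1.06) and 0.458 over all UMIs (0.429 to 0.489). MXI1, at 66.0 and 28.0 CPM, was also 2-fold lower over all UMIs. EGLN3, named after its values were seen, was the remaining higher gene there, at 17.3 and 39.5 CPM. VEGFA, a classic hypoxia target, was at 43.3 and 36.8 CPM, with a ratio of 1.31 (0.642 to 2.42). HIF1A also had a ratio of 2.31 in macrophages (1.94 to 2.77) and 3.0 in T or NK cells (1.64 to 5.22), where the 6 glycolysis genes were not higher. In smooth muscle cells HIF1A had a ratio of 1.23 (0.685 to 2.30), and P4HA2 5.47 (2.38 to 15.4). NDRG1, a stress-induced gene, was at 91.3 and 304 CPM in macrophages (2.13, 1.5 to 3.01).

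Of the regulators of glucose use outside the hypoxia list, 1 of 8 was 2-fold higher and 2 lower in graft endothelial cells, beside 11.9% of all genes in each direction. Their median log2 ratio was 0.44 thinned and -0.68 over all UMIs, where 0 of 9 were higher and 3 lower, beside 14.8% and 18.1%. The higher one was MTOR, a growth-signalling kinase, with a ratio of 2.49 (1.20 to 4.71), and 1.75 over all UMIs. TXNIP, which restrains glucose uptake, was at 605 CPM in native and 69.6 CPM in graft endothelial cells, a ratio of 0.208 (0.133 to 0.310). KLF2, a flow-responsive factor known to lower endothelial glycolysis, was at 566 and 179 CPM, a ratio of 0.244 (0.162 to 0.353). TXNIP had ratios of 0.298 in smooth muscle cells and 0.600 in macrophages, and KLF2 0.414 in macrophages, 0.333 in T or NK cells and 0.796 (0.401 to 1.63) in smooth muscle cells. KLF2 is also an early gene of tissue dissociation, and the part of dissociation in its values was not tested. FBP1, which runs the fructose bisphosphate step backwards, was at 2.41 and 83.5 CPM in macrophages, with a thinned ratio of 7.17 (1.79 to 41.2) from 3 native and 9 graft UMIs. Of the reference genes, 0 of 8 were 2-fold higher and 2 lower in endothelial cells, beside 11.9% of all genes in each direction. The counts were the same in macrophages, beside 11.7% and 12.2%, and the lower ones were B2M and EEF1A1. The median log2 ratio of this list in endothelial cells was -0.01, beside 0 over all genes and 0.81 for the 6 glycolysis genes. Over all UMIs it was 0.61, beside -0.06 and 1.57. There 1 of 8 was higher (PPIA, 2.23) and 2 lower, beside 14.8% and 18.1% of all genes. PPIA, a peptidyl-prolyl isomerase, also had thinned ratios of 1.58 (1.34 to 1.85) in endothelial and 1.79 (1.23 to 2.65) in smooth muscle cells.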

How the data were processed

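The authors deposited filtered matrices of whole-number UMI counts per gene and barcode, made with Cell Ranger 7.2.0 per the file headers. Seurat 5.0.0, R 4.3.3 and bcl2fastq 2.20.0.422 are listed per the submitters' processing notes. The genome build is not given in the sources used here; genes therefore carry no positions. The 6 genes and the gene lists were chosen with earlier results of these data known.

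Barcodes with under 200 genes or over 20% mitochondrial UMIs were removed (266 native, 143 graft). Scrublet in scanpy 1.11.5 called 0 native and 2 graft doublets, which is no working call, so the highest scores were removed at 0.8% per 1000 barcodes (1034 native, 12 graft). Clustering was joint over the kept cells, without integration (2000 variable genes, 30 components, 15 neighbours, Leiden resolution 1). Each of the 24 clusters took the class of its best marker list. A cluster stayed unnamed with under 3 markers at 2-fold, with over 50% as many markers of another class, or with another class leading its top 10 genes. It also stayed unnamed with a median depth under 10% of its library's, or when shallow with no marker of its own among those 10. The 10% limit, and the use of fold against clusters of other classes, were set after the clusters were seen. Unnamed clusters held 132 native and 235 graft cells.

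UMIs of cells thinned to 1000 were summed by class and library. Ratios carry exact conditional binomial intervals, levels exact Poisson and shares exact Clopper-Pearson intervals, at 95%. A ratio was called at 2-fold among genes with at least 10 thinned UMIs in the 2 sums together, and all 6 genes passed this minimum in each class. Against a sum of 0 UMIs the floor was 3 counts. Classes needed 30 thinned cells in each library. From each other list, up to 6 genes at 2-fold in endothelial, smooth muscle or macrophage cells are eligible for naming, and SLC2A1, HK2, PFKFB3, LDHB, TPI1, PGAM1 and VEGFA whatever their ratio. Likeness used log2(CPM + 5) of genes with at least 100 CPM. The ratio code was tested on simulated data. The 20 alternatives tried included other draws, depths, scalings, class rules and doublet settings.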

Additional observations from a re-analysis of the deposited data

Results flagged for a closer look

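The 6-gene sum was higher in the graft in 3 classes and lower in T or NK cells. The graft to native ratio was 2.05 in endothelial cells, 2.67 in smooth muscle cells and 1.60 in macrophages, each with an interval above 1, and 0.691 (0.520 to 0.902) in T or NK cells. With 1 library per group the difference between classes was not tested. Graft T or NK cells numbered 68 after thinning.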

How the results depend on the processing

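No paired analysis was possible because each group is 1 library. ENO1 and PKM were at least 2-fold higher in endothelial cells under all 16 alternatives that gave a value. The number of the 6 genes at 2-fold in endothelial cells was 2; it was 5 at a 1.5-fold call, 4 with another random draw, with 2000 UMIs per cell and with each cell weighted equally, and 6 over all UMIs. In macrophages it was 2; it was 0 with another draw, with 2000 UMIs, in cells of 5000 to 20000 UMIs and without mitochondrial, ribosomal and unnamed genes, and 1 with 500 UMIs, TMM scaling or equal weights. In smooth muscle cells it was 5; it was 1 with 500 UMIs and in cells of 5000 to 20000 UMIs, and 2 with classes from each cell's own markers. In T or NK cells it was 0, and 1 without mitochondrial, ribosomal and unnamed genes. Of 402 alternative ratios of the single genes, 28 lay on the other side of 1. Among genes at 2-fold this was so in 4 cases, on the log2 scale. Smooth muscle ALDOA was at -1.42 with own markers. Macrophage ENO1 was at -0.24 in cells of 5000 to 20000 UMIs and -0.21 in the cluster held by both libraries. PGK1 of T or NK cells was at 0.45 with 500 UMIs. The others were genes under 2-fold, mostly PKM (9) and ENO1 (4) in T or NK cells and PGK1 (4) in smooth muscle cells. Endothelial ALDOA (-0.28) and PGK1 (-0.05) turned with 500 UMIs. In macrophages LDHA (-0.45) and GAPDH (-0.12) turned in cells of 5000 to 20000 UMIs, GAPDH (-0.14) and ALDOA (-0.04) in the shared cluster, and ALDOA (-0.16) without mitochondrial, ribosomal and unnamed genes. The cause of these turns was not tested. The band, the shared cluster and the own-marker classes held fewer cells than the main comparison. TMM scaling took 0.15 in endothelial, -0.22 in smooth muscle, 0.14 in macrophage and 0.26 in T or NK cells off every log2 ratio and turned no direction of the 6 genes. The 6-gene ratio ranged from 1.76 to 2.81 in endothelial, 1.55 to 3.12 in smooth muscle, 0.954 to 1.97 in macrophage and 0.576 to 0.890 in T or NK cells. Cells held by both libraries, those above 20000 UMIs, those outside the TOP2A-led cluster or high-mitochondrial clusters, and equal weights were alternatives chosen after seeing the data. The levels of PGK1 and LDHA in native smooth muscle and graft T or NK cells rest on 3 to 9 UMIs, so their ratios carry wide intervals.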

Other observations

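Unnamed graft barcodes above 20000 UMIs numbered 10, all in cluster 9, whose other barcodes were mostly shallow. Their 6-gene sum was 5235 CPM, against 2641 CPM in graft macrophages of that depth, and single barcodes ranged from 1127 to 7467 CPM with a median of 4766. ENO1 was at 1670 CPM, GAPDH at 1203, ALDOA at 947, PKM at 830, LDHA at 317 and PGK1 at 269 CPM, so ENO1 took the lead that GAPDH held in graft macrophages. These barcodes carried the osteoclast-associated genes CTSK at 19017 CPM, ACP5 at 18475 CPM and MMP9 at 9254 CPM, with CD68 at 1089 CPM and the smooth muscle gene MYH11 at 11 CPM. They were singled out after their values were seen and were in no class compared.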
